A study of Homo sapiens with 8 samples.

Results

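The C/EBP (CCAAT/enhancer-binding protein) family was examined in FT293 cells, a Flp-In T-REx derivative of the human embryonic kidney line HEK293 in which tetracycline switches on a transgene placed at a fixed genomic site. A total of 4 lines were compared, carrying GFP alone or GFP-tagged HuR, TIA1 or TIAR, and the RNA of each was hybridized to 2 single-colour Agilent arrays after 3 days of tetracycline. All 4 lines, the GFP control included, shared the parental cell, the integration system, the GFP moiety and the drug, and the labels call the arrays of a line independent biological replicates without stating whether a line was 1 clone. The family comprised 6 gene names, CEBPA, CEBPB, CEBPD, CEBPE, CEBPG and CEBPZ, of 36337 gene names on the array. Each was measured by 1 probe (6 of 50599 probes), printed as 10 spots for CEBPB and CEBPZ and as 1 spot for the others. The genes were taken by family name, but the family itself was selected on measured values, because CEBPE was known to be nearly absent in the TIA1 line. The CEBPE levels are therefore given as a description, with no test.

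C/EBP proteins bind DNA as dimers through a basic leucine zipper. CEBPA drives the differentiation of granulocytes, fat cells and hepatocytes, CEBPB and CEBPD act in fat cell formation and in the acute-phase response, and CEBPE is a factor of late granulocyte maturation. CEBPG has no activation domain of its own and works through its partners, among them ATF4. CEBPZ carries the family name for its binding to CCAAT boxes, yet it is not a leucine zipper protein. The name C/EBP zeta has also been used for DDIT3 (CHOP), a stress-induced partner of the family.

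The sequences below are those behind the widest difference in the family and its nearest counterpart on the array. The CEBPE probe (hg19, chr14:23586547-23586606, minus strand) is a 60-mer with a GC content of 50%, of which the first 30 bases are shown. The probe of LOC100128908, a non-coding transcript model lying 16.9 kb away (chr14:23569631-23569690, minus strand), is shown whole. The longest run of bases that both probes shared, on either strand, was 8, and the longest that the CEBPE probe shared with any of the other 50598 probes was 13. Capital letters are not used, since no stretch is singled out.
CEBPE probe: atagaccatggataaatggcaaccggggtg
LOC100128908 probe: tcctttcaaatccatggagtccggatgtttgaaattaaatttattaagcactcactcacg

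The 250 bases before the RefSeq start (GRCh38.p14) are printed for CEBPE (chr14:23119256-23119505, minus strand), for CEBPA (chr19:33302535-33302784, minus strand), whose upstream window is shared with a divergent non-coding partner described further on, and for CEBPG (chr19:33373459-33373708, plus strand), the family member with CCAAT boxes nearest to its start. Capitals mark 5 motifs searched on both strands, namely CCAAT, the C/EBP half-palindrome TTNNGCAA, the C/EBP-ATF element TGATGNAA, the TATA box TATAAA and the GC box GGGCGG. Of 35116 windows of this length, 32.01% held CCAAT, 9.05% TTNNGCAA, 3.14% TGATGNAA, 10.72% TATAAA and 42.64% GGGCGG on either strand. The marked motifs do not overlap each other.
CEBPE upstream: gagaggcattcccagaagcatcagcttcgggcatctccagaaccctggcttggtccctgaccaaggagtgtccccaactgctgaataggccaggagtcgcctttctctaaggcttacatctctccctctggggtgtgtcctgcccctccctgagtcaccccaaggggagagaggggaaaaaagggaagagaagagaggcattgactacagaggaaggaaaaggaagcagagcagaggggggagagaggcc
CEBPA upstream: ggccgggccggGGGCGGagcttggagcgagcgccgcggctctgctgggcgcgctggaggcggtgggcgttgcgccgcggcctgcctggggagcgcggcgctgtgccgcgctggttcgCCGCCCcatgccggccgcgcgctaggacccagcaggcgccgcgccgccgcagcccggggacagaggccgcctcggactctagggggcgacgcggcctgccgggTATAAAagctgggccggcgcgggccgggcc
CEBPG upstream: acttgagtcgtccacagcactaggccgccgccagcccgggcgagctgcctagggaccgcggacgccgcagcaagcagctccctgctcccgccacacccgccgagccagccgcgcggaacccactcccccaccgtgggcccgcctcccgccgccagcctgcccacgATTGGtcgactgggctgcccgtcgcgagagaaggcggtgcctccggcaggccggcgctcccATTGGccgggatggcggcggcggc

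The CEBPE window held none of the 5 motifs and had a GC content of 57.2%, against 81.2% in CEBPA and 76% in CEBPG. The CEBPA window held a TATA box starting 30 bases before the start and 2 GC boxes. The CEBPG window held 2 CCAAT boxes on the minus strand, the nearer one from 24 to 20 bases before the start. A second CEBPG start in RefSeq had a TGATGNAA element from 42 to 35 bases upstream, the only such element in the 8 windows searched, which were those of CEBPA-DT and of the family without CEBPD. TTNNGCAA was in none of them. These are matches of letters and do not show binding.

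Signals are given as log2 of the scanner's processed signal relative to the array's 75th percentile, so that a difference of 1 is 2-fold. GFP 1 stood apart, with 86.1% of the 50599 probes marked as well above background, where the 7 other arrays had between 53.3% and 58.6%. That array also had a median local background of 82, against 36 to 41.5 on the others. Within a line, 15.8% of probes differed at least 2-fold between the GFP arrays, against 0.455% for HuR, 1.13% for TIA1 and 1.45% for TIAR, over probes well above background on both arrays. As a check of the labels, a probe of TIAL1, the TIAR gene, rose by 2.44 in TIAR versus HuR cells (limma, adjusted p = 0.00374), and the second TIAL1 probe was 0.39 lower (adjusted p = 0.0892). The other lines did not show a rise of this kind. Both probes of TIA1 were lower in the TIA1 line than in HuR, by 0.98 and 0.52 (adjusted p = 0.00472 and 0.0477), and the probe of ELAVL1, the HuR gene, was 0.63 lower in HuR than in GFP (adjusted p = 0.233). The TIA1 probes were also lower in TIAR than in HuR cells, with means of -1.56 and -1.13 against 0.01 and -0.58. The paper reports that TIA1 or TIAR expression depleted the endogenous TIA proteins, and that HuR expression lowered endogenous HuR. Such probes can check a label only if they lie in the transgene. That was not tested, so the lines are named throughout as labelled. The second TIA1 array has a title that reads GFP-TIA1 and a source name that reads GFP-TIA2, and the title was followed. Of 6 HEK293 markers, KRT8, KRT18, VIM, NEFL and PAX2 were well above background on all 8 arrays and NEFM was not. NEFL was 1.4 lower in TIA1 and 1.68 lower in TIAR than in HuR cells (limma, adjusted p = 0.00283 and 0.00495). NEFM was 1.05 lower in TIAR than in HuR (adjusted p = 0.00877). At 2-fold and an adjusted p under 0.05, 1 of 6 was thus lower in TIA1 (4.9% of all probes). In TIAR 2 of 6 were lower (3%), and 0 were higher in either line.

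CEBPE was the family member that set the TIA1 line apart. Its log2 signal was 5.73 and 6.05 on the GFP arrays, 6.57 and 6.47 on the HuR arrays, 5.84 and 6.11 on the TIAR arrays, and -4.92 and -5.41 on the TIA1 arrays. As processed signals these were 86073 and 88803 in GFP, 148539 and 148178 in HuR and 80048 and 90121 in TIAR, against 42.4 and 28.2 in TIA1. The 6 arrays of the other lines lay close together, and neither TIA1 array came near them. In such bulk RNA, fewer cells with the transcript and less of it per cell cannot be told apart.

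On the mean of 2 arrays, the CEBPE difference of TIA1-expressing cells was -11.69 log2 units from HuR, -11.14 from TIAR and -11.06 from GFP cells. The probe was well above background on 1 of the 2 TIA1 arrays and on every array of the other lines, and no spot was saturated. A bound took the lowest signal called above background on a TIA1 array wherever it exceeded the CEBPE signal. By this bound, and with this processing only, the differences were at least 3045-fold from HuR, 2085-fold from TIAR and 1965-fold from GFP. The size depended on the background correction. With normexp correction or the authors' own values the differences lay between -10.08 and -9.34. Each was smaller than the bounds, which are 11.57, 11.03 and 10.94 in log2 units, so the bounds are no secure minimum. Among the other lines, HuR was 0.63 above GFP and 0.55 above TIAR, and TIAR and GFP differed by 0.09, which was less than the gap of 0.32 between the GFP arrays.

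The pattern was uncommon on the array. With a limit of at least 32-fold below the mean of each other line, CEBPE was the only 1 of 50599 probes in the TIA1 line. Just outside that limit, 3 more probes, of LRRFIP1, HNMT and LOC100128908, measured at least 16-fold lower, but each was well above background on 0 of the 2 TIA1 arrays and has no exact difference or order. LRRFIP1 encodes a nucleic acid-binding regulator and HNMT an enzyme that inactivates histamine, and both lie on chromosome 2. Over the 8 arrays, the gene names whose signals followed CEBPE most closely were MOCOS (r = 0.996), CR2 (r = 0.994) and LRRFIP1 (r = 0.992), of 29581 probes compared. These correlations are descriptions that share the same 8 arrays and rest on the gap between the TIA1 arrays and the rest.

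**Figure D1:**
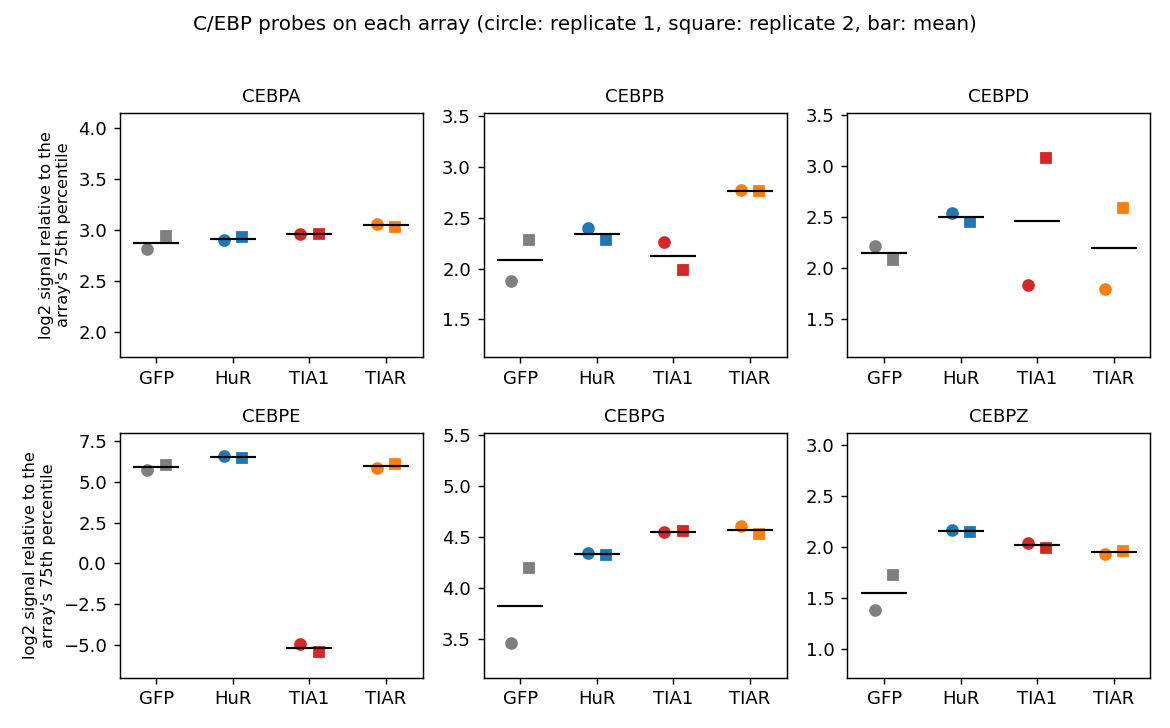
Log2 signal of the 6 C/EBP probes (vertical axis, relative to the array's 75th percentile) on each array of the GFP, HuR, TIA1 and TIAR lines, with circles for replicate 1, squares for replicate 2 and a bar at the mean. The CEBPE axis spans a wider range than the others, its TIA1 arrays lie at -4.92 and -5.41 and the 6 other arrays at 5.73 or above. The widest gap between replicates of another member is that of CEBPD in TIA1, at 1.83 and 3.08.

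LOC100128908, whose probe was printed above, had the widest difference of the tested neighbours of CEBPE. Its log2 signal was -2.78 and -2.10 in GFP, -1.48 and -1.51 in HuR, -2.06 and -1.67 in TIAR, and -7.89 and -6.87 in TIA1, where neither array had it well above background. Since the TIA1 signal was a bound, the transcript was at least 15.9-fold lower in TIA1 than in HuR cells (limma, adjusted p = 0.00258), at least 12.3-fold lower than in TIAR (adjusted p = 0.0191) and at least 8.29-fold lower than in GFP (adjusted p = 0.0953). It entered these tests only through the line where it was high, and the p-values use its background-level TIA1 signals. The size also depended on the background correction. The TIA1 minus HuR difference was -2.77 with normexp, -2.95 with normexp and quantile normalization and -2.86 with the authors' values, each smaller than the bound. SLC7A8, an amino acid transporter gene, has a probe 8 kb on the other side of CEBPE. Its brighter probe read -2.76 and -2.56 in GFP, -3.12 and -2.93 in HuR, -2.74 and -2.86 in TIAR, and -2.85 and -2.97 in TIA1. The TIA1 line lay within the range of the others for this gene, and its differences of 0.11 from HuR and -0.11 from TIAR did not pass the test (adjusted p = 0.491 and 0.612).

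Within 500 kb of CEBPE the array held 45 other probes. Of the 31 that were tested in TIA1 versus HuR, 5 were downregulated at least 2-fold with an adjusted p under 0.05 and 2 were upregulated, where 4.9% of all 28717 tested probes were downregulated and 8.51% upregulated. The downregulated genes were LOC100128908, HOMEZ, HAUS4, PRMT5 and THTPA. HOMEZ, a homeobox and leucine zipper gene 157 kb away, fell by 2.80 (adjusted p = 0.00228). HAUS4, a subunit of the augmin complex of the spindle, fell by 1.58 (adjusted p = 0.00265). PRMT5, an arginine methyltransferase, fell by 1.24 by 1 probe (adjusted p = 0.0147), and its second probe was 0.99 lower, short of the 2-fold limit. THTPA, a thiamine triphosphatase, fell by 1.08 (adjusted p = 0.00608). The upregulated genes were C14orf93 (1.1, adjusted p = 0.0051) and MYH7 (1.5, adjusted p = 0.0481), a cardiac myosin. MYH7 was not well above background on both HuR arrays. It was tested only because it was high in TIA1, and its call carries that condition. The median of the 31 was -0.26, against 0.08 over all probes, and the count of downregulated neighbours was 3 without HuR replicate 2.

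HAUS4 and HOMEZ were also lower than in TIAR cells, with differences of -1.2 and -1.52 (adjusted p = 0.0397 and 0.0452), and with LOC100128908 3 of 31 neighbours were lower in TIA1 than in TIAR, where 1.25% of all 28017 probes were. HAUS4 read -1.8 and -1.95 on the TIA1 arrays and between -0.83 and -0.28 on the other 6. HOMEZ read -2.56 and -2.21 in TIA1, -0.65 and -1.09 in TIAR, -0.54 and -0.77 in GFP, and 0.38 and 0.46 in HuR. For both genes the TIA1 arrays were the lowest of the 8 and did not overlap with any other line. In TIAR versus HuR, 1 of 30 neighbours was downregulated (3% of all probes), HOMEZ by 1.28 (limma, adjusted p = 0.0139). Upregulated were 2 (7.07%), C14orf93 by 1.22 and NGDN by 1.05 by 1 probe (adjusted p = 0.00775 and 0.024). The HOMEZ and C14orf93 calls against HuR were thus found in both TIA lines. In TIA1 versus GFP, 0 of 31 passed limma, as did 0 of all 27997 probes. At an unadjusted p under 0.05, 11 of the 31 passed, where 21.6% of all probes did. The comparisons of TIA1 with the 3 other lines share the TIA1 arrays. The 3 calls against TIAR fell to between 0 and 1 when any 1 of the 4 arrays was left out, and to 0 with the replicate number as a block and with no filter on dim probes.

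**Figure D2:**
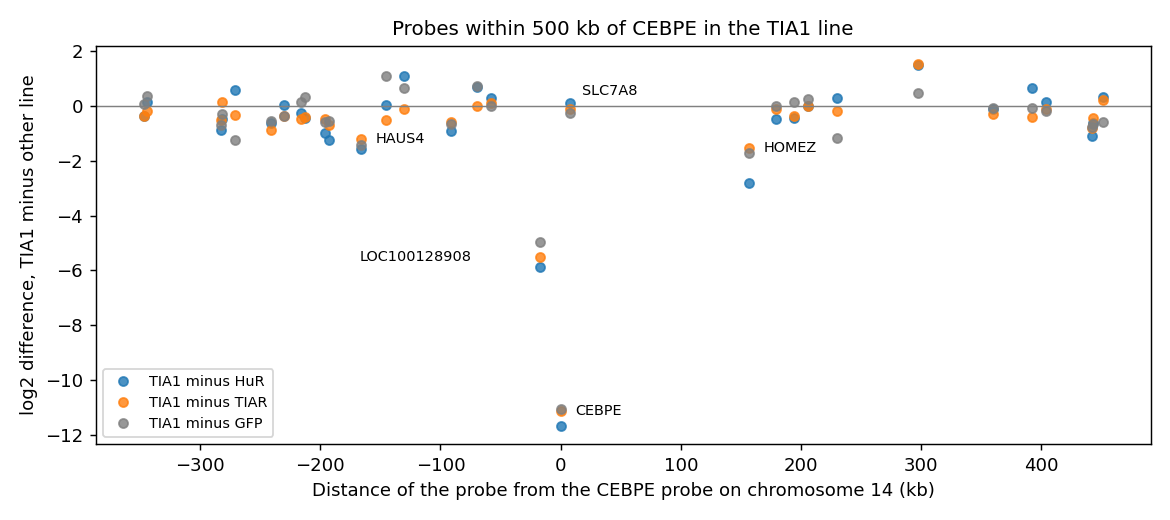
Log2 difference of the TIA1 line from the HuR, TIAR and GFP lines (vertical axis, means of 2 arrays) for each tested probe within 500 kb of CEBPE, against its distance from the CEBPE probe in kb. CEBPE and LOC100128908 lie far below the rest, and SLC7A8 next to them lies near 0. For LOC100128908 the TIA1 signal was not well above background, so its points are measured means and not bounds.

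The lower signals reached beyond these neighbours. Tested probes were grouped in bins of 5 Mb holding at least 20 probes, a step taken after the neighbours had been seen and carrying no test. In the bin of CEBPE, from 20 to 25 Mb, the median of 125 probes was -0.39 in TIA1 versus TIAR, and 86.4% of them were below 0. The medians of the next bins with enough probes were -0.61 (30 to 35 Mb, 29 probes) and -0.28 (35 to 40 Mb, 52 probes). Over the bins held from 50 Mb on they ranged from -0.08 to 0.09. From 25 to 30, 40 to 50 and 80 to 90 Mb no bin held 20 probes. Over 456 bins of the genome the median bin was at 0.01, the bin from 30 to 35 Mb was the lowest and the bin of CEBPE ranked 7. The bins ranked 2 to 6 were all on chromosome 16.

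Against HuR the medians of the same 3 bins were -0.35, -0.53 and -0.29, with ranks of 12, 4 and 19 of 458, and against GFP -0.36, -0.37 and -0.28, with ranks of 22, 20 and 33 of 456. Beyond 50 Mb the bins were less even in these comparisons, from -0.21 to 0.40 against HuR and from -0.32 to 0.09 against GFP, so that the bin from 90 to 95 Mb (-0.32 against GFP) lay among those of the first 40 Mb. In TIAR versus HuR, a comparison without the TIA1 arrays, they were 0.03, -0.08 and 0.02. By array, the median deviation of 239 probes in the first 40 Mb from their 8-array mean was -0.26 and -0.27 on the TIA1 arrays. It was 0.04 and 0.10 in GFP, 0.10 and 0.10 in HuR, and 0.09 and 0.14 in TIAR. For the 588 probes of the rest of the chromosome all 8 arrays lay between -0.02 and 0.03. On this median, both TIA1 arrays were lower than all others over the first 40 Mb. The cut at 40 Mb follows the last of these lower bins, and no bin was held from 40 to 50 Mb. The same arrays enter the bins and the cut, so the cut is a description and no separate evidence. The part of these shifts in the CEBPE signal was not tested. The median of the CEBPE bin stayed negative in every setting tried, with a range of -0.36 to -0.17 against HuR, -0.37 to -0.17 against GFP and -0.44 to -0.34 against TIAR.

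**Figure D3:**
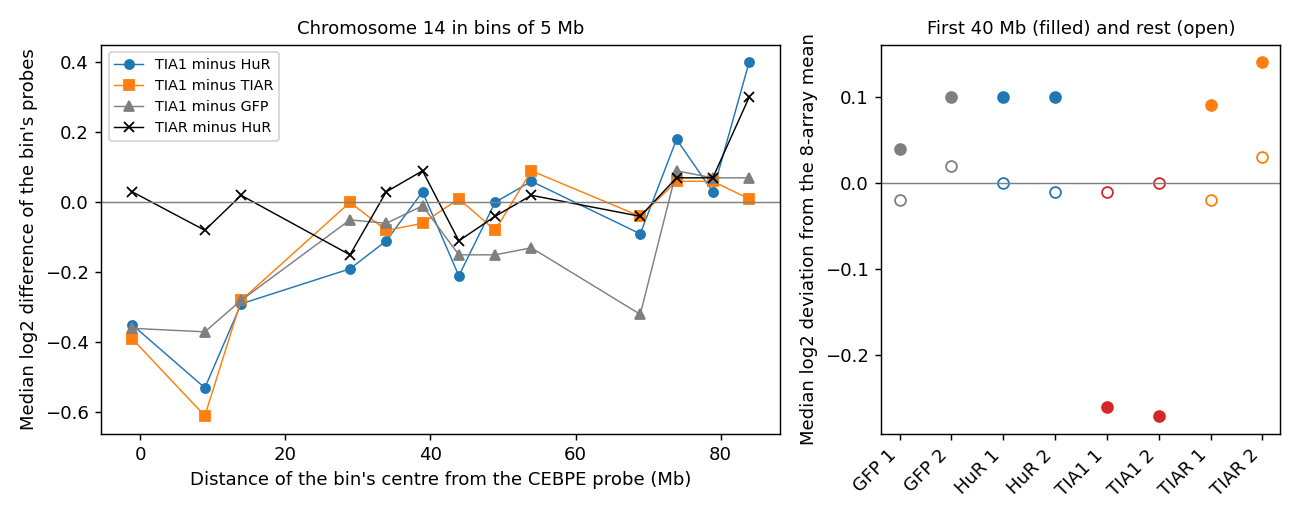
Left, median log2 difference of the tested probes in bins of 5 Mb along chromosome 14 (vertical axis) against the distance of the bin's centre from the CEBPE probe in Mb, for TIA1 minus each other line and for TIAR minus HuR. Right, each array's median log2 deviation from the 8-array mean for the first 40 Mb (filled) and the rest (open), where the TIA1 arrays lie at -0.26 and -0.27 for the first 40 Mb.

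None of the 5 other family members was called in any of the 6 comparisons between lines. The background share of called probes was 13.4% in TIA1 versus HuR, 10.1% in TIAR versus HuR and 2.35% in TIAR versus TIA1, and 0% in each comparison with GFP (0 of 27997 for TIA1, 0 of 28541 for TIAR and 0 of 28827 for HuR). At an unadjusted p under 0.05, limma gave 0 of 5 members in TIA1 versus HuR, 1 in TIAR versus HuR, 1 in TIAR versus TIA1, 0 in TIA1 versus GFP, 1 in TIAR versus GFP and 1 in HuR versus GFP. The shares of all probes at that threshold were 52.4%, 45.4%, 23.8%, 21.6%, 16.4% and 17.2% in the same order. The paired test of the methods, without adjustment and at any fold, passed CEBPG in TIA1 versus HuR and CEBPD in HuR versus GFP, and none after adjustment. With the adjusted p alone, at any fold, 0 of 5 members passed in TIA1 versus HuR, where 41.5% of all probes did. Likewise, 1 of 5 passed in TIAR versus HuR (30.7% of all probes) and 0 of 5 in TIAR versus TIA1 (3.49%).

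CEBPA, the factor of granulocyte, fat cell and liver differentiation, was the steadiest member. Its log2 signal was 2.81 and 2.94 in GFP, 2.90 and 2.93 in HuR, 2.96 and 2.96 in TIA1, and 3.06 and 3.03 in TIAR. The TIAR arrays were the highest and GFP 1 the lowest, with 0.17 between the extreme line means. With the authors' values that span was 0.40, against 0.39 for CEBPD. The difference was 0.05 in TIA1 versus HuR (95% confidence interval -0.19 to 0.29) and 0.13 in TIAR versus HuR (-0.12 to 0.38), so that a 2-fold change lay outside both intervals.

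CEBPB, a mediator of fat cell formation and inflammation, was highest in the TIAR line. It read 1.88 and 2.28 in GFP, 2.40 and 2.28 in HuR, 2.26 and 1.99 in TIA1, and 2.77 and 2.76 in TIAR. Both TIAR arrays lay above all 6 others, the GFP arrays overlapped with those of HuR and TIA1, and both TIA1 arrays lay below both HuR arrays. The TIAR line exceeded HuR by 0.43 (SE 0.10, limma, adjusted p = 0.0422), TIA1 by 0.64 (SE 0.14, adjusted p = 0.0845) and GFP by 0.68 (SE 0.23, adjusted p = 0.292). These are differences of 1.34-, 1.56- and 1.61-fold, short of 2-fold. The adjusted p of TIAR versus HuR ranged from 0.0166 to 0.316 over 14 alternatives and was under 0.05 in 5 of them.

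CEBPD, which responds to inflammatory signals, varied most between the arrays of the TIA1 and TIAR lines. It read 2.21 and 2.08 in GFP, 2.54 and 2.45 in HuR, 1.83 and 3.08 in TIA1, and 1.79 and 2.59 in TIAR. The arrays of the TIA1 line were 1.25 apart and spanned all other lines but TIAR 1. The TIA1 minus HuR difference of -0.04 had a 95% confidence interval of -1.21 to 1.14, and it became 0.59 without TIA1 replicate 1 (adjusted p = 0.0254) and -0.66 without TIA1 replicate 2 (adjusted p = 0.021). For TIAR versus HuR the difference was -0.30, and it was 0.10 and -0.70 without TIAR replicate 1 and 2 (adjusted p = 0.494 and 0.025).

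CEBPG, a partner of ATF4, was lowest in the GFP line. It read 3.46 and 4.20 in GFP, 4.35 and 4.33 in HuR, 4.55 and 4.56 in TIA1, and 4.61 and 4.53 in TIAR. The TIA1 and TIAR arrays lay above both HuR arrays, by 0.22 and 0.24 on the means, which did not pass the test (adjusted p = 0.117 and 0.133). Over 14 alternatives the TIAR minus HuR difference ranged from 0.19 to 0.52, and its adjusted p was under 0.05 in 3 of them. The arrays of the GFP line were 0.74 apart, and all other lines lay above both. The differences of TIA1 and TIAR from GFP, 0.73 and 0.74, did not pass (adjusted p = 0.287 and 0.355). Without GFP replicate 2 they were 1.09 and 1.11 and passed (adjusted p = 0.0165 and 0.0217), whereas without GFP replicate 1, the array with the high background, they were 0.36 and 0.38 (adjusted p = 0.195 and 0.226).

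CEBPZ, the CCAAT-binding factor outside the zipper class, was likewise lowest in the GFP line. It read 1.38 and 1.72 in GFP, 2.16 and 2.14 in HuR, 2.04 and 1.99 in TIA1, and 1.93 and 1.96 in TIAR. The arrays of the HuR, TIA1 and TIAR lines did not overlap with each other, yet the steps between them were small. HuR exceeded TIA1 by 0.13 and TIAR by 0.21 (adjusted p = 0.298 and 0.159). HuR exceeded GFP by 0.60 (adjusted p = 0.276), which was 0.43 without GFP replicate 1 (adjusted p = 0.0605) and 0.78 without GFP replicate 2 (adjusted p = 0.00983).

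**Figure D4:**
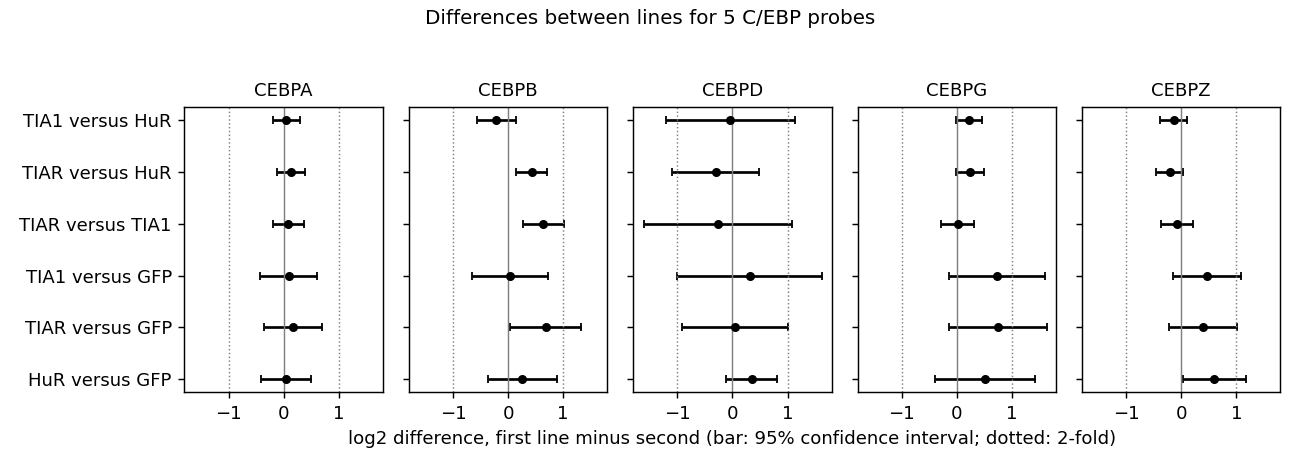
Log2 difference between lines (horizontal axis, first line minus second) for the 5 members other than CEBPE in 6 comparisons, with bars for limma's 95% confidence interval and dotted lines at 2-fold. The widest bar is that of CEBPD in TIAR versus TIA1. Of the comparisons without the GFP line, the CEBPB bars of TIAR versus HuR and TIAR versus TIA1 are the only ones that leave out 0.

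Over the 8 arrays, the genes that followed each of these members most closely were HELQ, PRNP and GALNT3 for CEBPA (r = 0.985, 0.981 and 0.981), WWTR1, RAB2B and SNORA44 for CEBPB (0.996, 0.995 and 0.989), and CNN3, PIH1D1 and BUB1B for CEBPG (0.994, 0.993 and 0.993). For CEBPZ they were TMEM147, ATP6V0E1 and PLCL2 (0.992, 0.988 and 0.988). For CEBPD they were LOC100133161, a probe without a gene name and CISD3 (0.982, 0.977 and 0.975). These are the highest values among 29581 probes over 8 arrays and are a description. No member was among another's closest genes.

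The non-coding partner of CEBPA was lowest in the TIA1 line. LOC80054, which RefSeq now names CEBPA-DT, starts upstream of CEBPA on the opposite strand and was measured by 2 probes. The brighter probe read 0.21 and 0.11 in GFP, -0.63 and -0.73 in HuR, -1.23 and -1.39 in TIA1, and -0.44 and -0.22 in TIAR. The arrays of the 4 lines did not overlap, with GFP highest and TIA1 lowest. TIA1 was 0.63 below HuR (SE 0.11, adjusted p = 0.0156) and the second probe gave 0.65 (adjusted p = 0.0101), both short of 2-fold. TIAR exceeded TIA1 by 0.98 by the brighter probe (adjusted p = 0.0452) and by 0.57 by the second (adjusted p = 0.0954). TIA1 was 1.47 and 1.12 below GFP by these probes, which did not pass (adjusted p = 0.101 and 0.149).

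DDIT3 was the bZIP partner that was called. Of 12 partners on the array 11 were tested. DDIT3 was upregulated in TIAR versus HuR and none was downregulated, where 7.07% of all 29054 probes were up- and 3% downregulated. In TIA1 versus HuR 0 of 11 were called by limma, where 8.51% of all probes were up- and 4.9% downregulated, and 3 of 11 had an unadjusted p under 0.05, where 52.4% of all probes did. The median difference of the 11 was 0.09 in TIA1 versus HuR, against 0.08 over all probes, and 0.01 in TIAR versus HuR, against 0.05. BATF was not well above background on any of 7 arrays, GFP 1 aside. None of the lists described from here on had a called gene in TIAR versus TIA1 or in a comparison with GFP.

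DDIT3, which forms dimers with C/EBP proteins under endoplasmic reticulum stress, read -0.46 and 0.19 in GFP, 0.35 and 0.29 in HuR, 1.04 and 1.24 in TIA1, and 1.24 and 1.54 in TIAR. All TIA1 and TIAR arrays lay above the HuR and GFP arrays. The increase over HuR was 2.10-fold in TIAR (log2 1.07, SE 0.14, adjusted p = 0.0122) and 1.76-fold in TIA1 (log2 0.81, SE 0.11, adjusted p = 0.00982), which was short of the 2-fold limit. The difference between TIAR and TIA1 was 0.25 (adjusted p = 0.403). The call in TIAR cells lay close to the limit and held in 7 of 14 alternatives. It was lost without TIAR replicate 2 (0.92) and without HuR replicate 1 or 2 (adjusted p = 0.0828 and 0.0962), and 2 partners were called without TIAR replicate 1.

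ATF4 and ATF3, factors of the stress response that pair with CEBPG and other members, did not pass. ATF4 read 7.07 and 7.27 in GFP, 7.41 and 7.27 in HuR, 7.22 and 7.34 in TIA1, and 7.29 and 7.38 in TIAR, with the TIAR arrays just above the GFP arrays and the other lines overlapping or touching. Its differences from HuR were -0.06 in TIA1 and -0.01 in TIAR (adjusted p = 0.684 and 0.975). ATF3 read 2.82 and 3.48 in GFP, 4.14 and 4.25 in HuR, 4.64 and 4.40 in TIA1, and 4.61 and 4.48 in TIAR. TIA1 and TIAR arrays were above the HuR arrays, by 0.33 and 0.35 (adjusted p = 0.108 and 0.077).

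**Figure D5:**
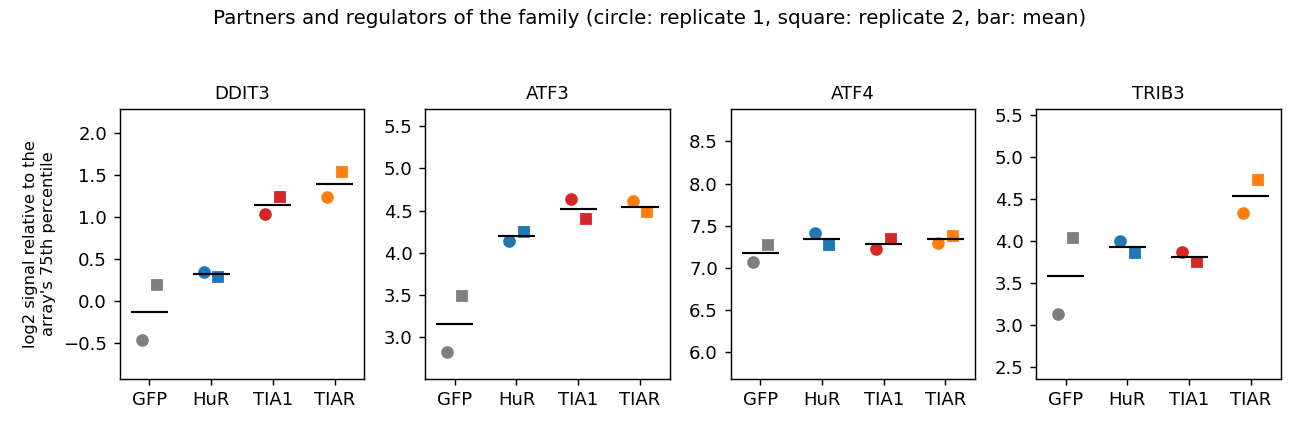
Log2 signal (vertical axis, relative to the array's 75th percentile) of DDIT3, ATF3, ATF4 and TRIB3 on each array of the 4 lines, with circles for replicate 1, squares for replicate 2 and a bar at the mean. The DDIT3 signals of TIA1 and TIAR (1.04 to 1.54) lie above those of HuR and GFP (-0.46 to 0.35), and the ATF4 signals span 7.07 to 7.41 over all lines.

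TRIB1 was the regulator of C/EBP proteins that changed. All 11 genes of this list, which cover the Tribbles adaptors, the ubiquitin ligases RFWD2 and FBXW7, kinases and coactivators, were tested. In each comparison with HuR 1 was downregulated (4.9% of all probes in TIA1, 3% in TIAR) and 0 were upregulated (8.51% and 7.07%), with a list median of 0.11 in both, against 0.08 and 0.05 over all probes. TRIB1, the adaptor that brings C/EBP alpha to its ubiquitin ligase, fell by 1.06 in TIA1 (adjusted p = 0.00396) and by 1.22 in TIAR (adjusted p = 0.00561) versus HuR. The TIAR call was lost without HuR replicate 1 or 2 (adjusted p = 0.0576 and 0.064). TRIB3, a target of DDIT3 and ATF4, read 3.13 and 4.04 in GFP, 4.00 and 3.86 in HuR, 3.87 and 3.75 in TIA1, and 4.33 and 4.73 in TIAR. Its TIAR arrays were the highest of the 8, and the differences of 0.59 from HuR and 0.72 from TIA1 did not pass (adjusted p = 0.0667 and 0.104).

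The granulocyte genes that CEBPA and CEBPE control in blood cells were mostly at background in these cells. Of 23 such genes on the array, 17 were not well above background on any of 7 arrays, GFP 1 aside, among them MPO, ELANE, LTF, CAMP, LCN2, MMP8 and S100A8. Of 4 tested in TIA1 versus HuR and 5 in TIAR versus HuR, 2 were upregulated in each (8.51% and 7.07% of all probes) and 0 were downregulated. The count in TIAR was 0 without HuR replicate 1 and 0 without HuR replicate 2. The genes were AZU1, an antimicrobial protein of granules, and MMP9, a matrix protease. AZU1 was not well above background in HuR cells and was at least 4.63-fold higher in TIA1 (adjusted p = 0.00335) and at least 3.56-fold higher in TIAR (adjusted p = 0.0104). It was thus tested only because it was high in those lines, and its calls carry that condition. MMP9 read -2.87 and -2.88 in HuR, -1.82 and -1.83 in TIA1, -1.8 and -1.73 in TIAR, and -1.83 and -1.59 in GFP. It rose by 1.05 in TIA1 (adjusted p = 0.00376) and by 1.11 in TIAR (adjusted p = 0.00615) versus HuR, and the HuR arrays were the ones apart from all others. In TIAR versus TIA1 0 of 5 granulocyte genes were called by limma (2.35% of all probes), with 1 of 5 at an unadjusted p under 0.05 (23.8% of all probes). The CEBPE difference between the same lines was given above as -11.14 for TIA1 minus TIAR, and its relation to these genes was not tested.

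Of 8 myeloid markers, MPO, ELANE and CSF1R were at background on the 7 arrays other than GFP 1, while PTPRC, SPI1 and CD14 were detected on every array. PTPRC was dim, from -4.66 to -3.94, on the 7 arrays other than GFP 1, where it read 1.12. CD14 and ITGAM were upregulated in TIA1 versus HuR (1.13 and 1.36, adjusted p = 0.00407 and 0.00285) and ITGAM in TIAR versus HuR (1.24, adjusted p = 0.00575), 2 and 1 of 5 tested (8.51% and 7.07% of all probes), and none was downregulated. The count in TIAR was 0 without HuR replicate 1, 0 without HuR replicate 2 and 2 without TIAR replicate 2. The summed level of the 8 markers, relative to the array's 75th percentile on a linear scale, was 0.788 and 0.709 in HuR, 1.47 and 1.48 in TIA1, 1.06 and 1.1 in TIAR, and 3.55 and 0.624 in GFP. It was thus higher in TIA1 and TIAR than in HuR, as AZU1 and MMP9 were, and its part in their increase was not tested. CD14 and ITGAM are themselves in this sum, which therefore says nothing further about the increase of these 2 markers. CD14 was the brightest marker on the HuR, TIA1 and TIAR arrays, and PTPRC was on GFP 1.

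Among 21 fat and liver genes, 10 were tested in TIA1 versus HuR, with 2 upregulated (8.51% of all probes) and 1 downregulated (4.9%), and 11 in TIAR versus HuR, with 2 upregulated (7.07%) and 0 downregulated (3%). Calls in TIA1 were 5 in all without TIA1 replicate 1, and those in TIAR were 4 without TIAR replicate 1 and 1 without HuR replicate 1. ALB, the serum albumin gene, was 2.82 higher in TIA1 and 2.61 higher in TIAR than in HuR cells (adjusted p = 0.00316 and 0.00568). Only 1 HuR array had it well above background, so ALB was tested only because it was high in TIA1 and TIAR. PCK1, an enzyme of gluconeogenesis that was not well above background in HuR cells, was at least 2.70-fold higher in TIA1 and at least 1.94-fold higher in TIAR (adjusted p = 0.00443 and 0.00772). It too was tested only because it was high in those lines, and in TIAR its 2-fold call rests on HuR signals at background, since the bound is below 2-fold. LPL, lipoprotein lipase, fell by 1.12 in TIA1 (adjusted p = 0.00443) and was 0.81 lower in TIAR. The fat cell markers ADIPOQ, PLIN1 and LEP and the hepatocyte marker TTR were at background on all arrays but GFP 1, while the fat cell marker CIDEC and the hepatocyte markers APOA1 and SERPINA1 were well above it on all 8. The summed level of 4 hepatocyte markers was 0.142 and 0.144 in HuR, 0.307 and 0.293 in TIA1, 0.244 and 0.254 in TIAR, and 0.285 and 0.132 in GFP. ALB is itself in this sum, which therefore says nothing further about the ALB increase. Its part in the PCK1 increase was not tested.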

How the data were processed

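Scanner output of 8 arrays, 2 per line and all on 1 slide, was read. The authors deposited intensity values as written by Agilent Feature Extraction, of which the processed signal, already background-subtracted and detrended within an array, was used. The log2 values of the series table were deposited by the authors after quantile normalization, apparently with the TIAR arrays handled apart, and served as an alternative. Here, log2 processed signals were centred on each array's 75th percentile, repeated spots were averaged and those marked as outliers dropped. A probe entered a test when both arrays of either line had it well above background (in at least 0.5 of its spots), and the fit ran over all such probes with limma 3.58.1 (R 4.3.3; lmFit, eBayes), using the 4 arrays of a pair of lines at a time. Calls required at least 2-fold and a Benjamini-Hochberg adjusted p under 0.05. Bounds ("at least") set the brighter mean against the lowest signal called above background on each array of the dim line. Where the dim probe's own signal was higher, that was used. Probes with a higher signal could lack that call, such as PRTN3 at -5.16 on TIA1 1 and CD33 at -5.02 on TIA1 2. The lowest called signal is thus no strict detection limit, and the bounds can be too large. The test was tried on simulated data.

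Members, lists and tests were chosen with earlier results of these data known. Named were all members, list genes called against HuR, DDIT3, ATF4, TRIB3, the 3 gene names closest to each member, probes at least 32-fold lower in TIA1 than in each other line, chromosome 14 neighbours within 500 kb of CEBPE and the opposite-strand partner of CEBPA. ATF3, LRRFIP1, HNMT and the bins were chosen after their values were seen. A listed gene was read from its brightest tested probe. Positions are the array design's (hg19), and upstream windows are RefSeq's. Without a genome, probes were not placed in exons or untranslated regions. Alternatives were normexp (offset 50), quantile normalization, both, the authors' values, no or a stricter filter, all 8 arrays in one fit, the replicate number as a block, the paired test of the methods and leaving out each array. The paired test was called at any fold, without the 2-fold limit. Plots used matplotlib 3.10.9. Precision is limited by having only 2 arrays in each line.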

Additional observations from a re-analysis of the deposited data

How the results depend on the processing

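For the 5 members other than CEBPE, 80 of 84 recomputed counts of calls stayed at 0 over 14 alternatives and 6 comparisons. The exceptions were 1 member (CEBPG) in TIA1 versus GFP and 1 in TIAR versus GFP when a single array was left out, GFP 2 in both, so that leaving out arrays gave between 0 and 1. The others were 1 member in TIA1 versus HuR and 1 in HuR versus GFP by the paired test of the methods without adjustment or a 2-fold limit. The CEBPE difference of TIA1 from HuR was -10.08 with normexp, -10.03 with normexp and quantile normalization and -10.00 with the authors' values. From TIAR it was -9.50, -9.50 and -9.56, and from GFP -9.34, -9.51 and -9.46. Leaving out an array gave -11.94 to -11.44 against HuR, -11.39 to -10.89 against TIAR and -11.3 to -10.81 against GFP. The CEBPE span between the highest and lowest line was 11.44 with quantile normalization alone, 10.08 with normexp, 10.03 with both and 10 with the authors' values, and the CEBPA span was 0.27, 0.31 and 0.40 with normexp, with both and with the authors' values. The CEBPZ span was 0.46 with quantile normalization, alone or after normexp.

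Counts over all probes moved more. They ranged from 0 to 6150 in TIA1 versus HuR (3851 as reported), from 0 to 4929 in TIAR versus HuR (2926) and from 0 to 3612 in TIAR versus TIA1 (659), with 0 from the paired test after adjustment and the upper end from the same test without it. That test had no 2-fold limit, unlike the counts as reported. Leaving out any array of TIAR or TIA1 brought the TIAR versus TIA1 count to between 0 and 34, and leaving out HuR 1 or HuR 2 brought TIAR versus HuR to 773 and 662. The comparisons with GFP, at 0, reached 6615, 6083 and 7013 for TIA1, TIAR and HuR without GFP 2. Replicate differences of separate lines correlated between -0.09 and 0.18, with the highest value for TIA1 and TIAR. These correlations over all probes are weak, and whether the numbers pair any arrays was not settled. With the replicate block, 0 members were called in any comparison, and the calls over all probes were 3895 in TIA1 versus HuR, 2933 in TIAR versus HuR and 0 in TIAR versus TIA1. The causes were not tested. Where 1 array was left out, the remaining array of that line was assumed to vary like the other line.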
